A study of Mus musculus with 18 samples.

Results

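Cyp2b10, a cytochrome P450 enzyme, and Serpinb6a, an inhibitor of serine proteases, were examined in 3 glands of male mice that had been given testosterone or placebo. The 2 genes were picked because their probes were higher with testosterone in all 3 glands, each with 1 probe, out of 8841 named genes on 10500 probes. Both probes were among the 7463 that were bright and complete enough to be tested. Because the rise with testosterone chose the genes, that rise is given here as a description with no test, and tests are given only for other comparisons.

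The groups were the lacrimal gland with testosterone and with placebo, the meibomian gland with testosterone and with placebo, and the submandibular gland with testosterone and with placebo, each as 3 arrays with pools A, B and C. All mice, placebo controls included, were orchiectomised BALB/c males that carried a hormone or placebo pellet for 21 days. Each pool held 10 glands of 5 animals, although the labels also speak of 4 animals per sex and experiment, and neither the animals' age nor the pellet's dose is given in the sources used here. Values are intensities on a linear scale, scaled by the authors to array medians of 0.929 to 0.952. Intensities of different probes are not on a common scale, so each gene is compared only with itself across glands and treatments. Replicate pools ranked the probes alike, with Spearman coefficients of at least 0.904 (submandibular), 0.927 (lacrimal) and 0.984 (meibomian), and the number of arrays limits the precision of all values.

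Cytochromes P450 of family 2 are membrane-bound oxidases that take electrons from a reductase and act on drugs, fatty acids and steroids. Cyp2b10 is best known from mouse liver, where it is the classic target of the constitutive androstane receptor CAR (gene Nr1i3), a nuclear receptor that shares many targets with the pregnane X receptor PXR (gene Nr1i2), and its enzyme can hydroxylate testosterone itself. Serpinb6a belongs to the clade B serpins, which stay inside the cell, trap serine proteases such as cathepsin G in an irreversible complex, and are thought to protect cells from proteases that leak from granules. The mouse submandibular gland is known for ducts that grow and fill with secretory granules under androgen, the lacrimal gland secretes aqueous tear fluid, and the meibomian gland secretes lipid onto the tear film.

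Since the 2 genes were higher with testosterone in the same glands, the DNA at their starts is shown for reference, from 250 bases before to 50 bases after the RefSeq start in build GRCm38.p6, with CG pairs in capitals. The Cyp2b10 window lies at chr7:25897408-25897707 on the plus strand and the window of the first of 2 Serpinb6a starts at chr13:34002745-34003044 on the minus strand.
Cyp2b10: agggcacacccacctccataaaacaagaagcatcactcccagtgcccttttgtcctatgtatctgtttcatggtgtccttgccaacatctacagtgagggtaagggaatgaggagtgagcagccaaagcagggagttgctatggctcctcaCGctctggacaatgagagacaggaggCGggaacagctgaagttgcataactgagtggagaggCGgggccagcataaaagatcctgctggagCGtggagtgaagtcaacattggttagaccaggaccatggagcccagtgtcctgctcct
Serpinb6a: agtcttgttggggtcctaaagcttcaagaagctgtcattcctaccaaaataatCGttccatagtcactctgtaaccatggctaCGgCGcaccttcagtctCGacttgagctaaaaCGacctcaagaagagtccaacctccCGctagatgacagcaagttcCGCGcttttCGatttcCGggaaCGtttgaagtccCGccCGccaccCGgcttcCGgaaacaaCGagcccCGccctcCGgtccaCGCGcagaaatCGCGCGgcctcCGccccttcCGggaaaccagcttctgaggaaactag
The windows differ in CG pairs. Cyp2b10 had 4, the first Serpinb6a start 25 and the second start, at chr13:33936034-33936333 on the minus strand, 5, against a median of 7 and quartiles of 3 and 20 over 32851 mouse promoter windows of this length. Their GC content was 53% for Cyp2b10, 55.7% for the first and 50% for the second Serpinb6a start, against a median of 52.7%. The half-site AGAACA, which steroid receptors such as the glucocorticoid receptor bind, the nuclear receptor half-site AGGTCA, the inverted repeat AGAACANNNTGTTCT and the direct repeat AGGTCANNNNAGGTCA were searched on both strands. None of the 3 windows held any of them. Only exact matches inside these windows were searched, so sites that differ by a base or lie further from the start were not looked for. Of all windows, 19.0% held AGAACA, 16.3% AGGTCA, 0.0091% the inverted repeat and 0.0152% the direct repeat, and each repeat contains its half-site.

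Cyp2b10 was higher with testosterone in each gland, and most of all in the submandibular gland. In submandibular pools A, B and C its intensity was 11.7, 7.74 and 13.1 with testosterone, against 0.716, 0.485 and 0.410 with placebo. The lowest testosterone pool stood 10.8-fold above the highest placebo pool. The means were 10.8 ± 2.77 with testosterone and 0.537 ± 0.159 with placebo (SD, n = 3 pools each), a 20.2-fold ratio and 3.94 ± 0.21 on the log2 scale (SE), which adds an offset of 0.174 to each intensity and so understates changes of dim probes. The placebo pools were dim, at percentiles 44.3, 34.9 and 29.6 of their arrays, whereas all other pools of the gene lay between percentiles 60.4 and 92.5. The 20.2-fold ratio therefore has a placebo level close to the low end of the arrays in its denominator.

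Lacrimal Cyp2b10 intensities were 18.9, 19.6 and 20.8 with testosterone, against 5.66, 9.11 and 9.24 with placebo. The groups did not overlap, and placebo pool A was the lowest of the 6. The means were 19.7 ± 0.982 with testosterone and 8.0 ± 2.03 with placebo, a 2.47-fold ratio (log2 1.32 ± 0.21). Meibomian intensities were 4.42, 4.13 and 4.09 with testosterone, against 2.04, 1.81 and 1.64 with placebo, and the groups did not overlap. This amounts to means of 4.21 ± 0.179 with testosterone and 1.83 ± 0.203 with placebo, a 2.30-fold ratio (log2 1.13 ± 0.21).

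Serpinb6a followed the same order of glands by size of change. Submandibular intensities were 276, 219 and 263 with testosterone, against 40.05, 43.6 and 42.0 with placebo, so that the lowest testosterone pool was 5.03-fold above the highest placebo pool. The means were 253 ± 29.9 with testosterone and 41.9 ± 1.79 with placebo, a 6.04-fold ratio (log2 2.58 ± 0.13). The Serpinb6a probe was not dim in the placebo pools, at percentiles 96.5 to 96.9 of their arrays.

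In the lacrimal pools Serpinb6a had intensities of 21.0, 19.8 and 19.3 with testosterone, against 10.5, 11.98 and 14.6 with placebo, and in the meibomian pools of 42.2, 37.7 and 36.5 with testosterone, against 28.0, 24.3 and 23.5 with placebo. Neither gland's groups overlapped, but the margin was narrow: the lowest testosterone pool was 1.32-fold above the highest placebo pool in the lacrimal and 1.30-fold in the meibomian gland. Lacrimal means were 20.0 ± 0.868 with testosterone and 12.4 ± 2.04 with placebo, a 1.62-fold ratio (log2 0.70 ± 0.13). Meibomian means were 38.8 ± 3.01 with testosterone and 25.3 ± 2.43 with placebo, a 1.54-fold ratio (log2 0.62 ± 0.13). Among all tested probes, testosterone pools lay above placebo pools without overlap for 18.2% (lacrimal), 24.1% (meibomian) and 16.5% (submandibular). Whether the changes of the 2 genes differ between glands was not tested, since the genes were chosen on them. In pooled glands, a higher share of cells that make a transcript and more transcript per cell cannot be told apart.

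**Figure D1:**
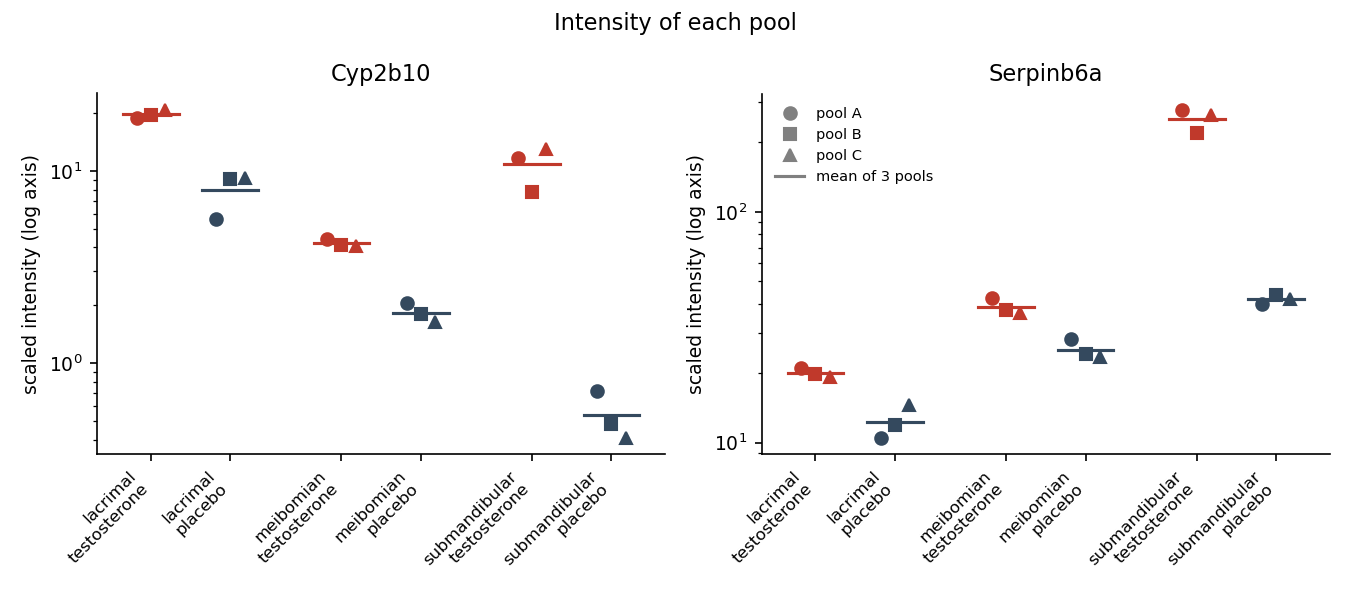
Intensity (log axis) of Cyp2b10 (left) and Serpinb6a (right) in each pool, with testosterone in red left of placebo in dark blue for each gland, markers for pools A, B and C and a line at the mean of 3 pools. Testosterone pools lie above placebo pools of the same gland for both genes, with the widest gap in the submandibular gland, at means of 10.8 and 0.537 for Cyp2b10 and 253 and 41.9 for Serpinb6a.

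Among all 7463 tested probes the 2 genes held different places from gland to gland. Cyp2b10 had the rise of rank 6 in both the meibomian and the submandibular gland, where 0.0670% of probes had a larger one, but only rank 278 in the lacrimal gland, where 3.71% had a larger one. Serpinb6a had rank 27 in the submandibular, 114 in the meibomian and 650 in the lacrimal gland, with larger rises in 0.348%, 1.51% and 8.70% of probes. Meibomian changes were small throughout, with the 1st and 99th percentiles of log2 change at -0.67 and 0.69, while they were -1.68 and 2.85 in lacrimal and -1.48 and 1.83 in submandibular glands.

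The named genes on each side of Cyp2b10 in size of rise were the oestrogen sulphotransferase Sult1e1 (log2 4.02) and the salivary protein gene Smr2 (4.04) above it and the bicarbonate transporter Slc4a4 (3.82) and the growth factor midkine, Mdk (3.56), below it in the submandibular gland. In the meibomian gland they were the glutathione peroxidase Gpx3 (1.18) and 4930550L24Rik (1.42) above and Odf1 (1.11) and Arc (1.04) below, and in the lacrimal gland Knstrn (1.33) and Ninj1 (1.33) above and Ncapg (1.32) and the amylase gene Amy2a5 (1.31) below. Serpinb6a stood next to Gadd45a (2.59) and the glucocorticoid receptor co-chaperone Fkbp5 (2.61) above and A26c3 (2.55) and Ptgr1 (2.44) below in the submandibular gland. Its neighbours were Sdhaf4 (0.62) and Lztfl1 (0.62) above and Scp2 (0.62) and Sycp3 (0.61) below in the meibomian gland, and Ugdh (0.70) and Dbr1 (0.70) above and Slc35b1 (0.70) and Cdc37l1 (0.70) below in the lacrimal gland.

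**Figure D2:**
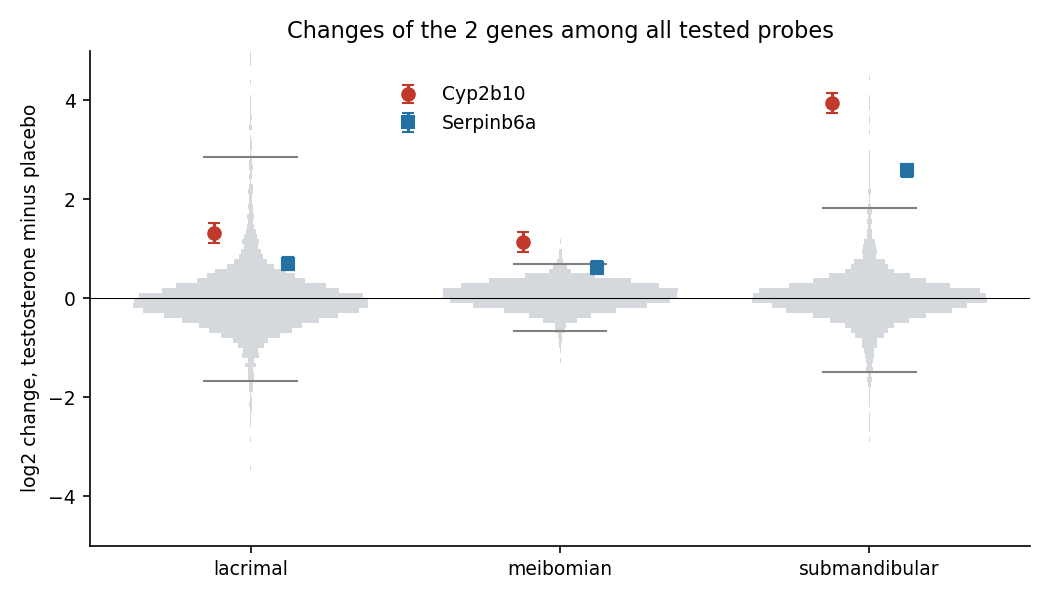
Log2 change, testosterone minus placebo, of Cyp2b10 (circles) and Serpinb6a (squares) with SE, beside the distribution of the change over all tested probes in each gland (grey shape) and its 1st and 99th percentiles (grey lines); 12 lacrimal and 2 submandibular probes lie beyond the axis limits of -5 and 5. Both genes exceed the 99th percentile of 1.83 in the submandibular gland, Cyp2b10 alone does so in the meibomian gland, and neither does in the lacrimal gland.

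The choice of the 2 genes rested on an adjusted p at or below 0.05 in limma in each gland, which 28.1% of probes met in lacrimal (13.3% higher), 0.59% in meibomian (0.469% higher) and 13.8% in submandibular pools (8.54% higher). With a higher value in all 3 glands it was met by 2 probes, or 0.0268%. Just outside it were the spectrin gene Sptbn4, with log2 changes of 0.52, 0.55 and 0.40 in the lacrimal, meibomian and submandibular glands, and the relaxin family peptide gene Insl6, with 1.96, 0.88 and 0.98. After 2 unnamed probes came the pyrophosphatase Ppa1 (0.30, 0.70 and 0.49), Ormdl2 (0.36, 0.46 and 0.285) and the serotonin receptor Htr6 (0.35, 0.46 and 0.64). Insl6 thus had larger changes than Serpinb6a in 2 of the 3 glands. Pools of testosterone lay above those of placebo in all 3 glands for 74 probes, or 0.992%. With the 6 arrays of each gland fitted alone, 7 probes met the threshold in all 3 glands, those of Cyp2b10, Serpinb6a, Fkbp5, Insl6, Mdk and Sparc among them. With array weights 35 probes met it with a higher value in all 3 glands, and with a 4-fold smaller or larger offset 4 and 5. When meibomian placebo pool A, B or C or meibomian testosterone pool A or B was left out, 0 probes met it in all 3 glands, and without lacrimal placebo pool B or lacrimal testosterone pool B only Cyp2b10 did.

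The glands differed in their levels of both genes in mice that carried a placebo pellet. Among placebo pools, Cyp2b10 was highest in the lacrimal gland, lower in the meibomian and lowest in the submandibular gland, and Serpinb6a ran in the opposite order. The choice of the genes did not compare glands, but it did use the placebo pools as the reference for the rise in each gland, so these tests share their values with it. They were made with limma, which set each difference against the probe's spread between pools over all groups, testosterone pools included. All 6 passed the threshold, in comparisons where 67.9% (lacrimal against meibomian, 38.7% higher and 29.2% lower), 44% (lacrimal against submandibular, 26.2% higher and 17.8% lower) and 66.6% (submandibular against meibomian, 36% higher and 30.6% lower) of all tested probes did so. A call in these comparisons is therefore common, and the sizes and order of the levels say more than the calls.

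Cyp2b10 with placebo averaged 8.0 ± 2.03 in the lacrimal and 1.83 ± 0.203 in the meibomian gland, a 4.37-fold ratio (log2 difference 2.0 ± 0.21, adjusted p = 2.59e-07 in limma). The lacrimal level was 14.9-fold the submandibular level of 0.537 ± 0.159 (log2 3.51 ± 0.21, adjusted p = 6.99e-10), a fold that rests on dim submandibular values, pools B and C lying below the 40th percentile of their arrays. The submandibular level was below the meibomian one by 3.41-fold (log2 -1.52 ± 0.21, adjusted p = 7.74e-06).

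Serpinb6a with placebo averaged 12.4 ± 2.04 in the lacrimal and 25.3 ± 2.43 in the meibomian gland, lower in the lacrimal gland by 2.04-fold (log2 -1.03 ± 0.13, adjusted p = 2.09e-06 in limma). It was lower by 3.39-fold in the lacrimal gland than at the submandibular level of 41.9 ± 1.79 (log2 -1.76 ± 0.13, adjusted p = 8.84e-09). The submandibular level was 1.66-fold the meibomian one (log2 0.73 ± 0.13, adjusted p = 9.63e-05).

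Ordered over all 6 groups, Cyp2b10 was highest in the lacrimal gland with testosterone, then in the submandibular gland with testosterone, the lacrimal gland with placebo, the meibomian gland with testosterone, the meibomian gland with placebo and, lowest, the submandibular gland with placebo. Of these neighbours, only the submandibular gland with testosterone (7.74 to 13.1) and the lacrimal gland with placebo (5.66 to 9.24) overlapped. Serpinb6a was highest in the submandibular gland with testosterone, then in the submandibular gland with placebo, the meibomian gland with testosterone, the meibomian gland with placebo, the lacrimal gland with testosterone and the lacrimal gland with placebo. Here only the submandibular gland with placebo (40.05 to 43.6) and the meibomian gland with testosterone (36.5 to 42.2) overlapped among neighbours.

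The gap between lacrimal and submandibular glands had other sizes in the 2 treatments. Lacrimal Cyp2b10 was 1.82-fold the submandibular level with testosterone and 14.9-fold, against the dim level, with placebo. Submandibular Serpinb6a was 12.6-fold the lacrimal level with testosterone and 3.39-fold with placebo. The submandibular gland, which had the least Cyp2b10 and the most Serpinb6a with placebo, had the largest ratio of testosterone to placebo for both, as a description of the values that chose the genes. Against the meibomian gland the lacrimal ratios were close to each other in both treatments: 4.69-fold with testosterone and 4.37-fold with placebo for Cyp2b10, and 1.94-fold with testosterone and 2.04-fold with placebo in favour of the meibomian gland for Serpinb6a. Differences of these ratios between treatments were not tested.

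The order of pools within a group was alike for both genes in some groups and not in others. Submandibular testosterone pool B was the lowest of its group for both, lacrimal placebo pool A was the lowest of its group for both, and meibomian pool A was the highest in both treatments for both. With testosterone the meibomian pools ran from A to B to C for both genes, as did the 99th percentiles of those arrays. The lacrimal testosterone pools ran in opposite orders, C highest for Cyp2b10 and A highest for Serpinb6a, and submandibular placebo pool A was the highest for Cyp2b10 and the lowest for Serpinb6a. After the mean of each of the 6 groups was taken off, the log2 values of the 2 genes correlated with Pearson r = 0.625 over the 18 arrays, which share the RNA and scaling of an array. Over the uncorrected 18 arrays r was 0.0399, as the glands order the 2 genes in opposite ways, and with each gland's mean taken off it was 0.988, which contains the rise that chose the genes.

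Genes with a pattern like theirs were ranked by Pearson r of log2 values over the 18 arrays, as a description. Cyp2b10 was most like the sialyltransferase St6galnac1 (r = 0.919), Niban1 (0.887), the transferrin receptor Tfrc (0.879) and Vps51 (0.866). Tfrc shared its order of glands, with 16.2 and 12.2 in the lacrimal, 4.76 and 3.83 in the meibomian and 8.43 and 3.59 in the submandibular gland for testosterone and placebo. Serpinb6a was most like Gadd45a (r = 0.979), a stress-induced growth arrest gene, followed by the transcription inhibitor Id3 (0.941), Ddah2 (0.934) and Grina (0.931). Gadd45a had 46.9 ± 5.88 in submandibular glands with testosterone and 7.62 ± 0.120 with placebo, against 4.70 and 1.85 in lacrimal and 7.29 and 5.42 in meibomian glands for testosterone and placebo. Once each gland's mean was taken off, each of the 2 genes had the other as its nearest pattern, and both then had Ero1a, Sult1e1 and P2ry14, at r from 0.961 to 0.978.

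Sult1e1, which sulphates oestrogens, had the largest log2 differences of these 3 in the submandibular and lacrimal glands. Its submandibular intensities were 114, 76.3 and 138 with testosterone, against 6.38, 6.83 and 5.98 with placebo, so that pool B was again the lowest of the testosterone pools. The log2 difference was 4.02 ± 0.25 there and 1.39 ± 0.25 in the lacrimal gland, where it averaged 1.46 ± 0.751 with testosterone and 0.413 ± 0.0242 with placebo. P2ry14, a receptor for nucleotide sugars, and Ero1a, an oxidase of the endoplasmic reticulum that forms disulphide bonds, had differences of 0.43 and 0.86 in the lacrimal gland and of 2.68 and 1.78 in the submandibular gland. Meibomian differences were 0.73 for Sult1e1, 0.20 for P2ry14 and 0.42 for Ero1a. Since this likeness contains the testosterone difference itself, no test is given for it.

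Of 19 other genes of cytochrome P450 family 2 on the array 12 were tested, and 6 of them were called, each in 1 gland. In the lacrimal gland 3 rose and 1 fell, against 13.3% higher and 14.8% lower among all tested probes, and their median change was 0.10, against -0.07 over all probes. In the submandibular gland 1 rose and 1 fell, against 8.54% and 5.25%, with a median of -0.13 against 0.01. In the meibomian gland limma called 0, against 0.469% higher and 0.121% lower, with 1 gene at an unadjusted p under 0.05, 0 called with the gland's arrays alone and a median of 0.18 against 0.06.

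The nearest relatives, Cyp2b9, Cyp2b13 and Cyp2b19, were called in no gland. Cyp2b13 had lacrimal intensities of 3.63, 4.44 and 4.73 with testosterone, against 6.05, 9.86 and 7.59 with placebo, without overlap and opposite in direction to Cyp2b10 (log2 -0.83 ± 0.39, adjusted p = 0.131). With the lacrimal arrays fitted alone this passed the threshold (adjusted p = 0.00900). Cyp2b19, a gene of skin epithelium, had 1.91 ± 0.327 with testosterone and 1.81 ± 0.256 with placebo in the lacrimal gland, and Cyp2b9 had means of at most 0.682 in any group. A probe for one Cyp2b gene may also bind transcripts of its close relatives, and this was not tested.

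Cyp2f2, a P450 of secretory epithelium, fell in the lacrimal gland. Its intensities were 45.2, 37.3 and 41.4 with testosterone, against 142, 143 and 139 with placebo, with no overlap (log2 -1.77 ± 0.12, adjusted p = 9.16e-09). Among the lacrimal rises, Cyp2c55 had means of 3.28 with testosterone and 1.52 with placebo (log2 1.02 ± 0.23), Cyp2c38 changed by 0.58 and Cyp2j6 by 0.44, but Cyp2j6 lost its call with the lacrimal arrays alone (adjusted p = 0.0778). Cyp2e1, which oxidises ethanol, rose in the submandibular gland, with 41.0, 31.8 and 33.2 with testosterone, against 15.7, 13.2 and 21.0 with placebo (log2 1.09 ± 0.33, adjusted p = 0.0347). Cyp2a12 fell there by 0.50 on the log2 scale and lost its call with the submandibular arrays alone (adjusted p = 0.149).

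**Figure D3:**
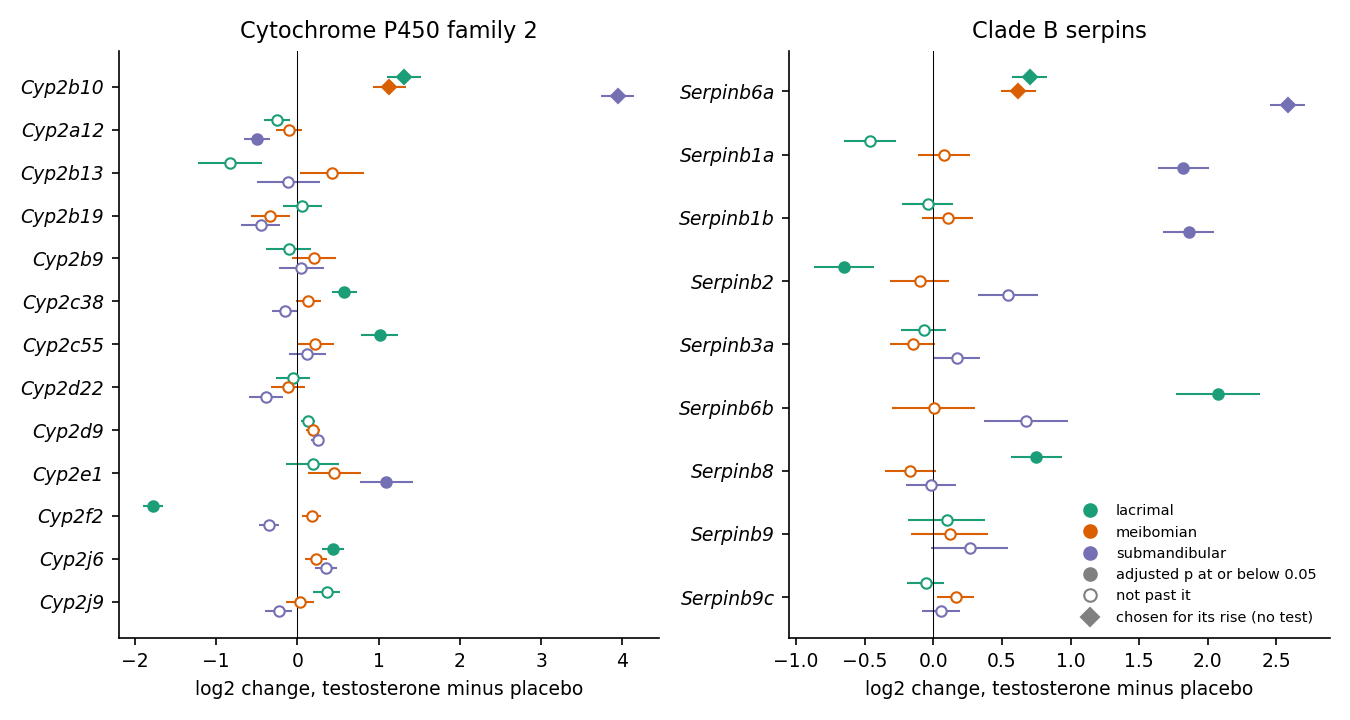
Log2 change, testosterone minus placebo, with SE, of Cyp2b10 and 12 other tested family 2 cytochromes P450 (left) and of Serpinb6a and 8 other tested clade B serpins (right), in lacrimal (green), meibomian (orange) and submandibular (purple) glands; filled circles have an adjusted p at or below 0.05, and diamonds mark the 2 genes chosen for their rise. No other gene of either family is called in the meibomian gland, and the other submandibular rises are Cyp2e1 (1.09), Serpinb1a (1.82) and Serpinb1b (1.86).

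Genes outside family 2 that CAR or PXR are known to induce in liver moved in both directions. Of 34 on the array 26 were tested. In the lacrimal gland 5 rose and 6 fell (19.2% and 23.1%, against 13.3% and 14.8% of all tested probes, median -0.03), and in the submandibular gland 5 rose and 2 fell (19.2% and 7.69%, against 8.54% and 5.25%, median -0.02). In the meibomian gland limma called 0 (median 0.13), with 2 genes at an unadjusted p under 0.05 and 1 called with the gland's arrays alone, the sulphotransferase Sult1a1 (log2 0.94, adjusted p = 0.0166). Sult1a1 was not called in the lacrimal gland either, but passed the threshold with the lacrimal arrays alone (log2 1.83, adjusted p = 5.20e-05). Sult1e1, described above, was the only gene of this list besides Gadd45g called higher in both the lacrimal and the submandibular gland.

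The lacrimal rises were led by Cyp3a13, a steroid and drug hydroxylase, with intensities of 13.6, 13.6 and 10.12 with testosterone, against 0.528, 0.978 and 0.787 with placebo (log2 3.76 ± 0.18, adjusted p = 1.37e-10). The efflux pump for conjugates Abcc2 had 8.26, 6.41 and 6.81 with testosterone, against 0.449, 0.424 and 0.616 with placebo (log2 3.46 ± 0.18, adjusted p = 2.03e-10). Thus the lacrimal gland had larger changes of these than of Cyp2b10, while neither gene was called in the submandibular gland. Thrsp rose by 1.95 and Gadd45g by 1.68 in the lacrimal gland. The drug efflux pump Abcb1a fell by 2.47 on the log2 scale, the carboxylesterase Ces1d by 2.05, and the glutathione transferases Gstm1 and Gsta3 by 1.60 and 1.49.

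In submandibular glands Gsta2 rose by 1.53, although its pools overlapped, it was dim and with the submandibular arrays alone it was too dim to be tested, and the retinaldehyde dehydrogenases Aldh1a7 and Aldh1a1 by 1.37 and 0.75. Gadd45g rose by 1.17. Ces1d and Gstm1 fell there too, by 0.90 and 0.72 on the log2 scale, and Ces1d lost its call with the submandibular arrays alone (adjusted p = 0.0786).

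The receptors themselves were at the low end of the arrays. Nr1i3 (CAR) had intensities between 0.0288 and 0.417 and Nr1i2 (PXR) between 0.0270 and 0.543 over the 18 arrays, and both were too dim to be tested. In submandibular pools Nr1i3 had 0.206, 0.129 and 0.167 with testosterone, against 0.235, 0.194 and 0.248 with placebo, and Nr1i2 had 0.444, 0.348 and 0.515 with testosterone, against 0.266, 0.279 and 0.303 with placebo. The Nr1i2 pools did not overlap and were higher with testosterone, but lay at percentiles 14.7 to 38.2 of their arrays. Of all tested probes, 16.5% had submandibular testosterone pools above placebo pools without overlap. The Nr1i3 pools overlapped. The P450 reductase gene Por was not analysed here.

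Of 19 partners and regulators of CAR and PXR on the array 14 were tested, 0 rose and 2 fell in the lacrimal gland (14.3% lower, against 14.8% of all tested probes, median -0.22), and 0 rose and 4 fell in the submandibular gland (28.6% lower, against 5.25%, median -0.08). The insulin-responsive factor Foxo1 averaged 1.21 ± 0.502 with testosterone and 4.23 ± 1.56 with placebo in submandibular glands (log2 -1.68 ± 0.25, adjusted p = 0.000285). Foxa2, a pioneer factor of gut-derived epithelia, fell in lacrimal (-1.25 ± 0.31) and in submandibular glands (-1.12 ± 0.31), Cebpa in both by 0.51 and 0.57 on the log2 scale, and Ppp1r16a, a regulatory subunit of protein phosphatase, by 0.88 in the submandibular gland. With a gland's arrays alone Foxo1 in the submandibular and Foxa2 in the lacrimal gland kept their calls, and the others did not (adjusted p = 0.104 for lacrimal Cebpa and, in the submandibular gland, 0.193 for Foxa2, 0.136 for Cebpa and 0.0659 for Ppp1r16a). In the meibomian gland limma called 0 of the 14, with 0 at an unadjusted p under 0.05, and 1, Foxo1, was lower with the gland's arrays alone. Of 4 steroid receptors on the array the glucocorticoid receptor Nr3c1 and the oestrogen receptor Esr2 were tested, and 0 calls were made in any gland, with 0 at an unadjusted p under 0.05 and 0 with each gland alone.

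P450 enzymes need haem and an electron donor, and 14 genes for these were all tested. In the lacrimal gland 0 rose and 5 fell (35.7% lower, against 14.8% of all tested probes, median -0.15), led by the cytochrome b5 reductase Cyb5r1, which had 0.863 ± 0.170 with testosterone and 3.21 ± 0.209 with placebo (log2 -1.72 ± 0.15, adjusted p = 2.00e-07). The haem-degrading oxygenase Hmox1, the haem synthesis enzymes Urod and Fech and the electron carrier Cyb5a fell by 1.02, 0.93, 0.65 and 0.54 on the log2 scale. In the submandibular gland 2 rose and 1 fell (14.3% and 7.14%, against 8.54% and 5.25%, median -0.03): Hmox2 by 1.35 ± 0.22 and Hmox1 by 0.56 ± 0.11 upward, and the haem synthesis enzyme Alad by -1.20 ± 0.15. Hmox1 therefore fell in the lacrimal and rose in the submandibular gland. In the meibomian gland limma called 0 (median 0.22), with 3 genes at an unadjusted p under 0.05 and 0 called with the gland alone. The rate-limiting enzyme of haem synthesis, Alas1, which CAR also induces in liver, was called in no gland, at log2 changes (SE 0.58) of 0.61 for lacrimal, -0.20 for meibomian and -0.44 for submandibular glands, and passed the threshold in the lacrimal gland alone (adjusted p = 0.0115).

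Some clade B serpins rose with testosterone as well, in 1 gland each. Of 9 others on the array 8 were tested. In the submandibular gland 2 rose and 0 fell, against 8.54% and 5.25% of all tested probes, with a median change of 0.41 against 0.01. In the lacrimal gland 2 rose and 1 fell, against 13.3% and 14.8%, with a median of -0.05 against -0.07, and in the meibomian gland limma called 0, with 0 at an unadjusted p under 0.05, 0 with the gland alone and a median of 0.04 against 0.06.

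Serpinb1a, an inhibitor of neutrophil elastase and related proteases, had submandibular intensities of 65.8, 46.3 and 63.0 with testosterone, against 20.0, 17.0 and 12.4 with placebo (log2 1.82 ± 0.19, adjusted p = 4.36e-06). Its close relative Serpinb1b had 37.0, 26.7 and 35.6 with testosterone, against 10.9, 8.12 and 7.92 with placebo (log2 1.86 ± 0.19, adjusted p = 3.07e-06). As for Cyp2b10 and Serpinb6a, testosterone pool B was the lowest of its group for both genes, and no pools overlapped. Neither was called in the lacrimal or the meibomian gland, where Serpinb1a changed by -0.46 and 0.08 and Serpinb1b by -0.04 and 0.10. Because the 2 sequences are close relatives, their probes may bind each other's transcripts, which was not tested.

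Serpinb6b, a close relative of Serpinb6a, rose in the lacrimal gland, with 4.66, 3.35 and 3.73 with testosterone, against 0.975, 0.792 and 0.627 with placebo (log2 2.08 ± 0.30, adjusted p = 6.65e-05). In submandibular pools it had 8.83, 21.5 and 31.8 with testosterone, against 12.2, 11.1 and 10.9 with placebo. These overlapped, since pool A was below all placebo pools, and the change was not called (log2 0.67 ± 0.30, adjusted p = 0.163). Its meibomian means were 1.56 ± 0.0813 with testosterone and 1.56 ± 0.149 with placebo, a change of 0.00. Serpinb8 rose by 0.75 in the lacrimal gland and Serpinb2, dim there at 0.194 with testosterone and 0.406 with placebo, fell by 0.65 on the log2 scale. With the lacrimal arrays alone Serpinb2 was too dim to be tested. Serpinb3a, Serpinb9 and Serpinb9c were called in no gland.

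Among 11 tested serpins of other clades, of 18 on the array, 3 rose and 0 fell in the submandibular gland (27.3% higher, against 8.54% of all tested probes, median 0.40), 2 rose and 1 fell in the lacrimal gland (18.2% and 9.09%, against 13.3% and 14.8%, median 0.00) and 0 were called by limma in the meibomian gland (median 0.11), with 0 at an unadjusted p under 0.05 and 0 with the gland alone. Serpina1d, an antitrypsin gene of mouse, rose in both, with submandibular means of 3.34 ± 0.611 with testosterone and 0.404 ± 0.273 with placebo (log2 2.73 ± 0.30, adjusted p = 8.20e-06) and a lacrimal change of 2.14 ± 0.30. Serpina3n rose by 1.24 in the lacrimal gland and Serping1, the inhibitor of complement C1, fell there by 0.57 on the log2 scale. In the submandibular gland the remaining rises were Serpinf1 (0.72), which lost its call with the gland's arrays alone (adjusted p = 0.0983), and Serpina3a (0.67).

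The listed serine proteases, of kinds that such serpins may meet, were called about as often as all probes. The kallikreins tested in this list were Klk6, Klk7, Klk8 and Klk11, so its counts do not cover Klk1 or Klk1b genes. Of 39 serine protease genes of granules, the clotting system and the kallikrein family on the array 23 were tested, of which 4 rose and 3 fell in the lacrimal gland (17.4% and 13%, against 13.3% and 14.8% of all tested probes, median 0.00), 1 rose and 2 fell in the submandibular gland (4.35% and 8.7%, against 8.54% and 5.25%, median -0.12) and 0 were called by limma in the meibomian gland (median 0.08), with 2 at an unadjusted p under 0.05 and 0 with the gland alone. Cathepsin G (Ctsg) and the kallikrein Klk8, proteases that Serpinb6a or its human counterpart is known to inhibit, were called in no gland. Ctsg had submandibular means of 4.74 ± 0.517 with testosterone and 4.19 ± 0.440 with placebo, and Klk8 had 0.263 with testosterone and 0.413 with placebo.

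Lacrimal rises were those of clotting factor F12, with 23.7 ± 1.01 with testosterone and 3.63 ± 2.44 with placebo (log2 3.0 ± 0.42, adjusted p = 3.80e-05), and of the granzymes Gzmb (1.60) and Gzmc (0.68) and the mast cell protease Mcpt1 (0.47), of which Mcpt1 lost its call with the lacrimal arrays alone (adjusted p = 0.0580). The proprotein convertase Furin had lacrimal intensities of 5.05, 6.27 and 6.82 with testosterone, against 21.6, 15.9 and 14.0 with placebo (log2 -1.47 ± 0.23, adjusted p = 0.000118). Its submandibular intensities were 4.75, 2.13 and 3.60 with testosterone, against 1.62, 1.54 and 1.28 with placebo (log2 1.08 ± 0.23, adjusted p = 0.00426), so it moved in opposite directions. In the submandibular gland Furin, Tmprss2 (-0.79) and Klk11 (-0.58) all lost their calls with that gland's arrays alone (adjusted p = 0.0758, 0.0524 and 0.0504).

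Lysosomal cathepsins fell in the lacrimal and rose in the submandibular gland where they were called. Of 13 on the array 12 were tested, 0 rose and 4 fell in the lacrimal gland (33.3% lower, against 14.8% of all tested probes, median -0.30), 3 rose and 0 fell in the submandibular gland (25% higher, against 8.54%, median 0.18), and limma called 0 in the meibomian gland (median 0.08), with 3 at an unadjusted p under 0.05 and 1, Ctsb, called with the gland's arrays alone. Ctsh had lacrimal intensities of 11.7, 13.2 and 11.5 with testosterone, against 27.3, 29.2 and 33.4 with placebo (log2 -1.29 ± 0.16, adjusted p = 7.85e-06), and submandibular intensities of 16.1, 14.6 and 16.3 with testosterone, against 12.4, 9.49 and 11.5 with placebo (log2 0.49 ± 0.16, adjusted p = 0.0444). Ctsb fell in the lacrimal gland by 0.74 on the log2 scale and Ctsd rose in the submandibular gland by 0.78. With single glands fitted alone the submandibular calls of Ctsh (adjusted p = 0.0778) and Ctsk (log2 0.71, adjusted p = 0.0893) and the lacrimal call of Ctsa (log2 -0.36, adjusted p = 0.115) were lost.

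Both genes lie in clusters of their own family, so the tested genes among the 15 protein-coding genes on each side were also looked at, a window chosen after values had been seen. Around Cyp2b10 on chromosome 7, 12 genes were tested. In the submandibular gland 0 of them rose and 1 fell (Cyp2a12, above), where 8.54% of all tested probes rose and 5.25% fell, in the lacrimal gland 1 rose and 1 fell, where 13.3% rose and 14.8% fell, and in the meibomian gland limma called 0, with 0 at an unadjusted p under 0.05 and 0 with the gland's arrays alone. The lacrimal rise was that of Ccdc97, 4 genes from Cyp2b10, with intensities of 33.8, 8.70 and 29.8 with testosterone, against 1.15, 1.03 and 1.15 with placebo (log2 4.02 ± 0.33, adjusted p = 8.48e-08). In the submandibular gland Ccdc97 averaged 1.55 with testosterone and 0.836 with placebo, without overlap (log2 0.78 ± 0.33, adjusted p = 0.137). It was not called there, but passed the threshold with the submandibular arrays alone (adjusted p = 0.0190). The nearest tested genes, Cyp2b13 on one side and Axl on the other, were called in no gland.

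Around Serpinb6a on chromosome 13, 11 genes were tested, of which 4 rose and 1 fell in the submandibular gland (8.54% and 5.25% of all tested probes), 2 rose and 1 fell in the lacrimal gland (13.3% and 14.8% of all) and 0 were called by limma in the meibomian gland, with 2 at an unadjusted p under 0.05 and 0 with the gland's arrays alone. Besides Serpinb1a and Serpinb1b, the submandibular rises were those of the adjoining quinone reductase gene Nqo2, with 7.37, 6.26 and 8.19 with testosterone, against 2.91, 3.89 and 3.83 with placebo (log2 1.01 ± 0.18, adjusted p = 0.00109), and of the tubulin gene Tubb2b, with 8.56, 10.7 and 11.1 with testosterone, against 2.46, 2.31 and 2.79 with placebo (log2 1.93 ± 0.14, adjusted p = 5.19e-08). None of these pools overlapped. Prpf4b fell there by 0.71 on the log2 scale and lost its call with the gland's arrays alone (adjusted p = 0.0571). In the lacrimal gland Serpinb6b and Prpf4b (0.68) rose and Tubb2b fell by 0.51 on the log2 scale, which was lost with that gland alone (adjusted p = 0.0555). The median change of the 11 was 0.32 in the submandibular, -0.06 in the lacrimal and 0.11 in the meibomian gland.

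**Figure D4:**
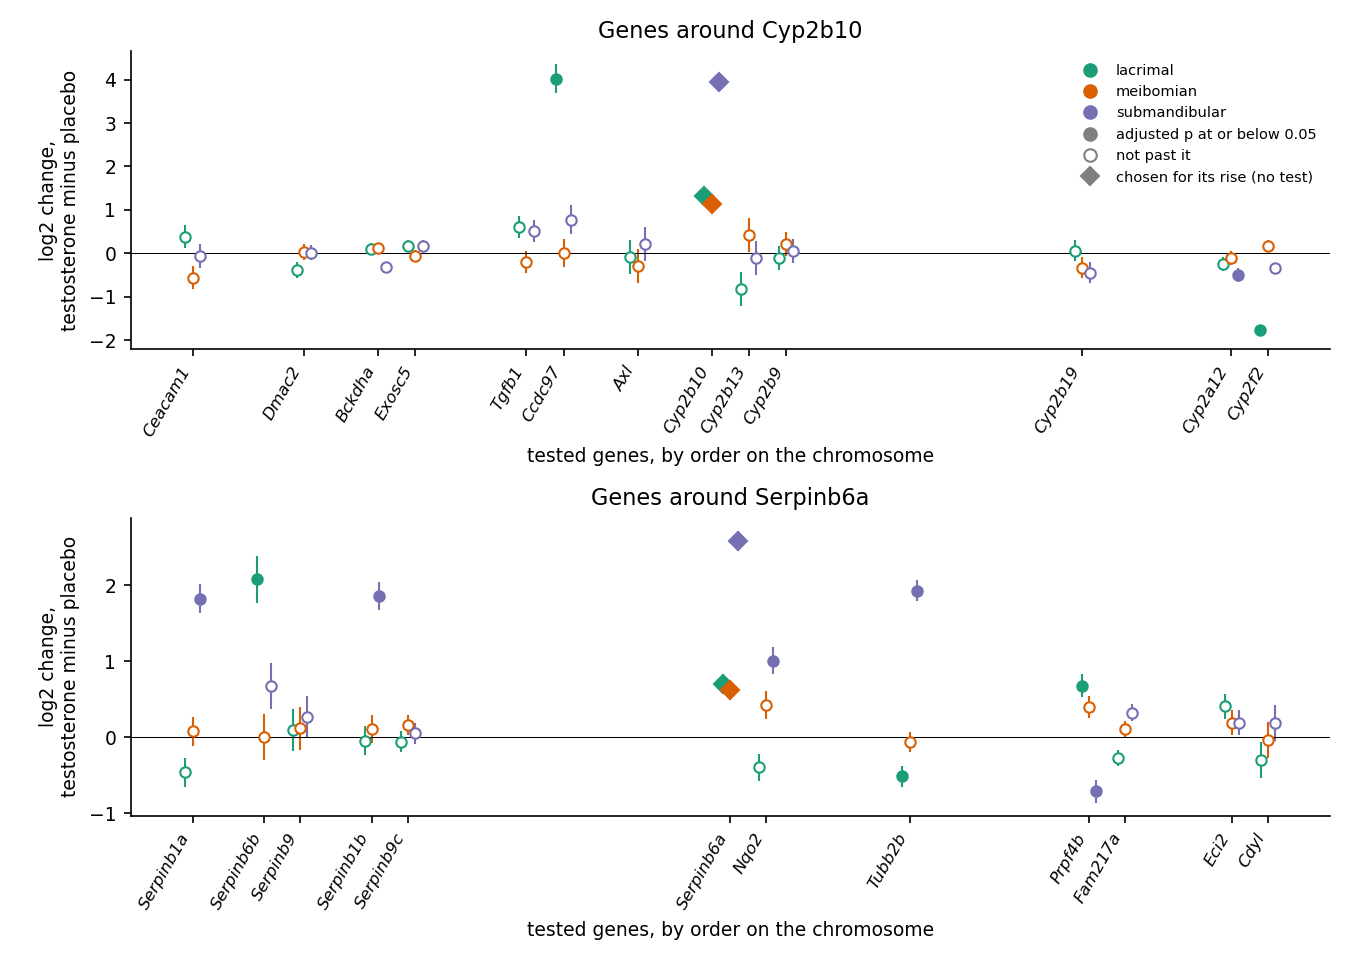
Log2 change, testosterone minus placebo, with SE, of tested genes within 15 protein-coding genes of Cyp2b10 (top) and Serpinb6a (bottom), spaced by gene order and not by distance, in lacrimal (green), meibomian (orange) and submandibular (purple) glands; filled circles have an adjusted p at or below 0.05, and diamonds are Cyp2b10 and Serpinb6a. Called submandibular rises stand around Serpinb6a (Serpinb1a 1.82, Serpinb1b 1.86, Nqo2 1.01, Tubb2b 1.93). None is called around Cyp2b10, where Ccdc97 (0.78) passes only with the submandibular arrays alone.

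The labelled glands were checked against their markers. Summed over each list, 4 lacrimal markers reached 310 to 441 with testosterone and 649 to 694 with placebo in lacrimal pools and 11.4 to 19.0 in meibomian pools but 433 to 651 in submandibular pools, so they do not part those 2 glands. In meibomian pools the 9 probes for meibomian markers summed to 466 to 583 with testosterone and 404 to 409 with placebo. Elsewhere they reached at most 50.3. In submandibular pools 3 submandibular markers summed to 810 to 899 with testosterone and 685 to 781 with placebo, and elsewhere to at most 24.1. Neither sum overlapped between treatments in its own gland. There limma called 0 of the 9 meibomian probes, where 0.469% of all tested probes rose and 0.121% fell. Of the 3 submandibular markers 2 rose in the submandibular gland (66.7%, against 8.54% of all tested probes). The other was not called, but its testosterone pools lay below its placebo pools without overlap. In lacrimal pools the meibomian markers summed to 22.9 to 37.2 with testosterone and 14.96 to 15.6 with placebo, and the submandibular markers to 13.9 to 24.1 with testosterone and to 22.3, 5.89 and 4.79 with placebo, pool A being the highest. Without that placebo pool the lacrimal changes were 1.09 for Cyp2b10 and 0.59 for Serpinb6a on the log2 scale.

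Some summed markers of other cells differed between treatments in the submandibular and the lacrimal gland. In submandibular pools, probes of 17 macrophage and lymphocyte markers summed to 85.2 to 89.2 with testosterone and 60.5 to 72.9 with placebo. Of 11 tested, 4 rose (36.4%, against 8.54% of all tested probes), namely Cd14, C1qa, C1qb and C1qc. Fat markers summed to 64.9 to 69.7 with testosterone and 75.2 to 174 with placebo. Muscle markers summed to 11.6 to 14.1 with testosterone and 11.9 to 25.5 with placebo, which overlapped. Of 5 fat markers 2 fell and 0 rose (40% lower, against 5.25% of all tested probes). Of 13 muscle markers 4 fell and 1 rose (30.8% and 7.69%, against 5.25% and 8.54%). In lacrimal pools the macrophage and lymphocyte markers summed to 76.9 to 96.8 with testosterone and 67.5 to 73.6 with placebo, and the fat markers to 7.35 to 11.0 with testosterone and 14.3 to 18.7 with placebo, without overlap in either list. Only 1 of the 11 tested macrophage and lymphocyte markers rose there (9.09%, against 13.3% of all tested probes), with a median change of -0.01. Of the 5 fat markers 2 fell there and 0 rose (40% lower, against 14.8%). Mast cell and neutrophil markers summed to 17.2 to 18.9 with testosterone and 15.8 to 16.8 with placebo in lacrimal pools, without overlap. Of 8 tested, 1 rose and 1 fell there (12.5% each, against 13.3% and 14.8%). Their sums overlapped in submandibular pools, as did the muscle sums in lacrimal pools. In meibomian pools the sums of each of these lists overlapped between treatments. There 1 of the 5 fat markers fell (20%, against 0.121%).

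Since Cyp2b10 is best known from liver, 15 hepatocyte marker probes were summed as well. They came to 13.5 to 15.8 with testosterone and 5.50 to 7.18 with placebo in submandibular pools, to 10.8 to 12.4 with testosterone and 5.60 to 5.93 with placebo in lacrimal pools, and to 3.62 to 5.21 with testosterone and 3.35 to 4.08 with placebo in meibomian pools. Most of the submandibular difference was in 1 gene, the thyroxine carrier Ttr, with 9.88, 7.56 and 9.26 with testosterone, against 0.921, 1.04 and 0.967 with placebo, while Ahsg (0.487 with testosterone and 0.613 with placebo), Fgg (0.165 and 0.290) and Hpd (0.340 and 0.536) had lower means with testosterone and were not called. In the lacrimal gland 3 of the 5 tested hepatocyte markers rose (60%, against 13.3% of all tested probes), Ttr, Fgg and Ahsg. The part of these other cells in the changes of Cyp2b10 and Serpinb6a was not tested.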

How the data were processed

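The authors deposited a table of probe intensity values for 18 one-colour arrays, which per the table's values are on a linear scale and scaled to a common median. The array type, scanner, background correction and scaling method have no description in the sources used here, so they are not given. In 37 to 118 probes of an array the table holds -1, taken here to mean that nothing was measured, and other negative values were set to 0. GEO's platform annotation named 8983 probes with 1 gene, 1 with several and 1516 with none, and a RefSeq table (GRCm38.p6) updated 0 symbols.

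An offset of 0.174, the 10th percentile of positive values, was added before log2 was taken. A probe was tested if it had at least 2 values per group and exceeded its array's 40th percentile on at least 3 arrays. Of 10500 probes, 146 lacked values and 2891 were too dim, which left 7463. limma 3.58.1 (R 4.3.3) was fitted over all arrays with 6 group means (residual df 12, trended eBayes). Benjamini-Hochberg adjustment covered every tested probe, and 0.05 was the threshold. The fit was tested on simulated data. Figures were drawn with matplotlib 3.10.9 (Python 3.11.15, pandas 2.3.3).

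The 2 genes, the gene lists and the named genes were chosen with earlier results of these data known. Named were the 2 genes, Nr1i3, Nr1i2 and Por where measured, up to 4 called genes per list and gland or otherwise the 2 brightest, the 4 genes most like each of the 2 over the arrays and with gland means taken off, and the genes next in size of rise. A few other members of lists and the chromosome neighbours were named after their values were seen. Pools with the same letter were not paired: correlations of their residuals ran from -0.109 to 0.138 within glands and from -0.0647 to 0.132 across glands. Alternatives covered the offset, the filter, the scaling, the variance model, array weights, each gland alone, the pool letter as a block and leaving out each array.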

Additional observations from a re-analysis of the deposited data

Results flagged for a closer look

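For 5 genes of the lists or of the chromosome neighbourhoods the change with testosterone was called in opposite directions in the lacrimal and submandibular glands. The difference of the 2 changes also had to pass the threshold in limma for a gene to be named here. It was -1.58 on the log2 scale for the haem oxygenase Hmox1 (lacrimal minus submandibular, adjusted p = 1.22e-06), -2.55 for the convertase Furin (adjusted p = 2.12e-05) and -1.78 for the cathepsin Ctsh (adjusted p = 1.61e-05). Near Serpinb6a it was -2.44 for Tubb2b (adjusted p = 1.12e-07) and 1.39 for Prpf4b (adjusted p = 0.000111). Hmox1 had 3.13, 3.47 and 3.76 with testosterone, against 7.72, 6.57 and 7.22 with placebo in lacrimal pools, and 3.49, 3.40 and 3.15 with testosterone, against 2.26, 2.35 and 2.04 with placebo in submandibular pools. These genes were chosen on their opposite calls and on these adjusted p-values of the difference. The p-values are therefore a description, and their passing the threshold was fixed by the choice. With each gland fitted alone, Hmox1 kept both calls, and each of the others lost 1 of them. Groups of 3 pools were not screened for single outlying values.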

How the results depend on the processing

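Over 23 alternatives each, the log2 changes of the 2 genes kept their direction, from 1.09 to 1.44, 0.96 to 1.21 and 3.20 to 4.23 for Cyp2b10 and from 0.59 to 0.82, 0.45 to 0.69 and 2.19 to 2.68 for Serpinb6a in the lacrimal, meibomian and submandibular glands. Values that moved by more than the spread between pools were 0.96 and 3.20 for Cyp2b10 in the meibomian and submandibular glands with a 4-fold larger offset, and for Serpinb6a 0.48 and 2.19 in the same glands with quantile normalization over all arrays and 0.45 and 2.40 with it within glands. All 6 placebo differences between glands kept their direction and call over 30 alternatives each, with a highest adjusted p of 0.000883 in limma.

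The number of probes called in the meibomian gland, 44, was the least stable: 291 with its arrays alone, 77 with the larger offset, 28 with quantile normalization over all arrays, and from 0 to 170 when 1 array was left out. It was 0 without placebo pool A, 2 without B, 4 without C, 3 without testosterone pool A, 0 without B and 170 without C, and 85 without submandibular placebo pool A. The submandibular count of 1029 was 451 with its arrays alone. The cause of these shifts was not tested. Of 162 counts over gene lists under an alternative, 19 moved, either by more than 1.5 times or to or from 0. The pool letter as a replicate block gave 2105, 39 and 1053 called probes in the lacrimal, meibomian and submandibular glands, against 2094, 44 and 1029 without it, and changed no placebo call of the 2 genes. Serpinb6a was not among the probes called higher in all 3 glands with this block, with no filter, with either quantile normalization or without the trend, and Cyp2b10 was among them in each. Folds against submandibular placebo Cyp2b10 rest on a dim signal.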

Other observations

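Serpini2, a serpin of another clade, averaged 0.324 ± 0.0889 with testosterone and 26.3 ± 44.9 with placebo in submandibular pools (SD, n = 3 each), so that the SD exceeded the mean in the placebo group, and the pools overlapped.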
